A study of Mus musculus with 6 samples.

Results

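The small nucleolar RNAs (snoRNAs) and small Cajal body RNAs (scaRNAs) of the mouse brain were followed in rows of a deposited expression table whose symbol starts with Snora, Snord or Scarna. Of 119 such rows, 3 lay on chromosome 12 and were left out, and of the 116 others 107 held 12 or more counts summed over 6 libraries. These 107 of the table's 56826 rows are 34 H/ACA rows (Snora), 66 C/D rows (Snord) and 7 Cajal body rows (Scarna). Just inside the threshold were Snord1a with 12 counts and Snord123 with 13. Just outside were Snord98 with 11, Snora19 with 8, Snord92 with 8 and Snord14a with 3, and 5 rows were at 0 in every library.

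The samples were brain RNA of adult male C57BL/6 mice aged 8 to 9 weeks. In 3 samples the middle cerebral artery had been blocked with a filament for 1 h, followed by 6 h of reperfusion (transient middle cerebral artery occlusion, tMCAO, here ischemia/reperfusion). In the other 3, the sham group, the same operation was done under the same chloral hydrate anesthesia without inserting the filament. The labels give the tissue as brain and name neither a hemisphere nor a region, and they do not say that the samples came from separate animals, so the p-values below reflect only how far these samples spread, a spread that may be technical in origin. Total RNA was depleted of ribosomal RNA and sequenced paired-end, and the column totals of the count table ran from 45425867 to 49686109 counts.

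snoRNAs guide chemical marks onto other RNAs. C/D snoRNAs pair with ribosomal RNA and direct fibrillarin to methylate a ribose, H/ACA snoRNAs direct dyskerin to turn a uridine into pseudouridine, and scaRNAs do the same for spliceosomal RNAs in Cajal bodies. Most mammalian snoRNAs lie inside introns of host genes, many of which encode ribosomal proteins or translation factors, and are cut out of the spliced intron. Libraries prepared for long RNA recover such short RNAs only in part, and a row can hold reads of the mature snoRNA and of the host's unspliced RNA together.

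The class-defining boxes can be read where a member row runs through a microRNA hairpin in the RefSeq table of build GRCm38.p6. On the same strand, 4 member rows did so. Snord33 starts with the mature miR-5121, and its first 28 bases (chr7:45126918-45126945, minus strand) are shown to place the C box UGAUGA, in capitals. The stretches of Scarna3a (bases 52 to 117 of the 118 in the row, chr1:159340358-159340423, plus strand) and Snora36b (bases 50 to 113, the row's end, chr1:185242975-185243038, plus strand) show the ACA triplet close to the 3′ end that names the H/ACA class, again in capitals.
Snord33: agcuugUGAUGAgacaucucccacucau
Scarna3a: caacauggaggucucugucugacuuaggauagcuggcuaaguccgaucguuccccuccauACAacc
Snora36b: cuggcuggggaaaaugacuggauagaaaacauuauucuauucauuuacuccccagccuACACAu
In the Scarna3a row 4 bases followed the ACA. In Snora36b the triplet occurs in overlap, with 3 and 1 bases after it. The fourth row, Snora34, shares its first 73 bases with the Mir1291 hairpin, a stretch that does not reach the snoRNA's 3′ end.

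These overlaps matter for reading the counts, since a read over shared bases can be counted in both rows. The Mir5121 row held 926, 1006 and 826 counts in the sham libraries and 821, 751 and 730 after ischemia/reperfusion. The Snord33 row held 1553, 1661 and 1487 and then 1436, 1323 and 1338. These are raw counts, not scaled to the library totals, and the rows share 28 of the 82 bases of Snord33. Neither row can be read as an independent view of the other. The Mir1843b row inside Scarna3a held 15 to 27 counts per library and the Mir664 row inside Snora36b held 0 to 4.

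By gene ID, 106 of the 107 members matched RefSeq, 103 lay at their RefSeq position and 101 had the same start and end. The Snord118 row is placed on chromosome 19 (chr19:7478518-7478561, plus strand), opposite Rtn3, whereas RefSeq places Snord118, the U8 snoRNA of large-subunit ribosomal RNA processing, on chromosome 11, so its 33 counts are not read as U8. Snord116, Snord116l1 and Snord116l2 are 3 rows with the same span of chromosome 7, the same length of 900 bases and identical counts, so they are 1 measurement and the 107 rows hold 105 distinct ones. The sources used here do not say whether reads were counted by strand, so reads from an antisense transcript cannot be told apart.

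Levels per length spanned a wide range, and a few rows held most reads. RPKM, which scales a count to the row's length and the library's total, averaged over the 6 libraries, ran from 0.511 for Snord123 to 3270 for Scarna10, with a median of 24.6 for H/ACA, 14.4 for C/D and 10.3 for Cajal body rows. After Scarna10 came Scarna2 at 1380, Scarna6 at 1190, Snord15b at 852 and Snord22 at 611. This order depends on row length, which is 71 bases for Scarna10, 61 for Scarna2 and 248 for Scarna6. By summed counts Scarna6 (85008) stood above Scarna10 (66707) and Scarna2 (24211). Scarna6 and Scarna10 together held 35.5% of all member counts, and the 7 rows with most counts held 65.2%. In contrast, 46 members averaged under 1 CPM (the count scaled to 1000000 counts per library), where 3 counts of a library equal 0.0604 to 0.066 CPM.

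**Figure D1:**
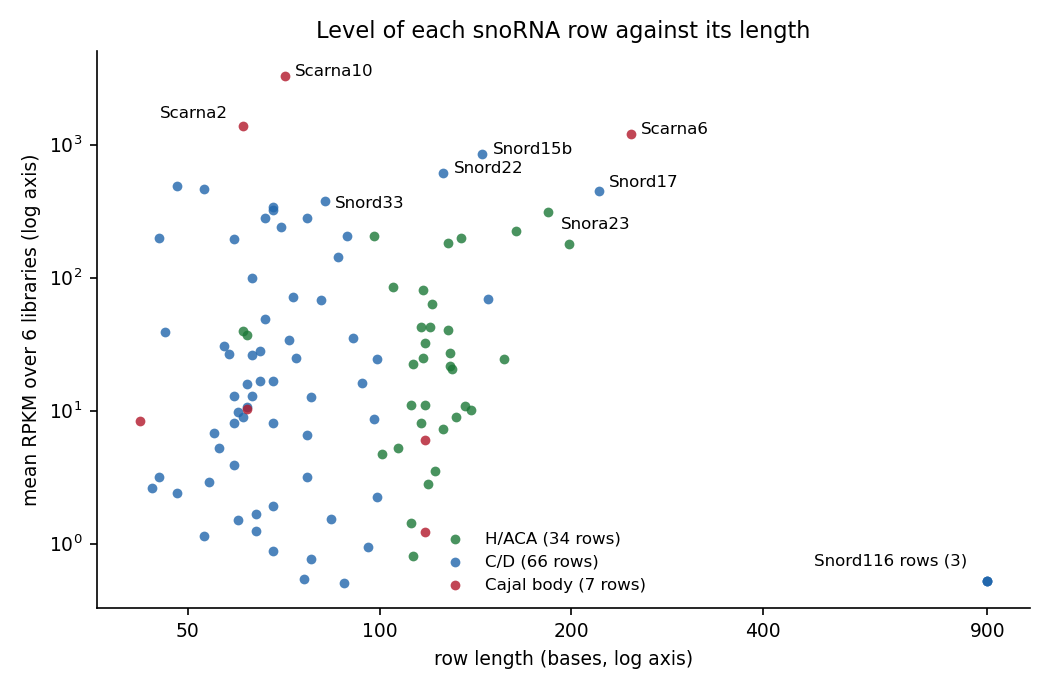
Mean RPKM over 6 libraries against row length in bases, both on log axes, with 1 point per snoRNA row coloured by class. The Cajal body rows Scarna10 (3270), Scarna2 (1380) and Scarna6 (1190) stand highest, and the 3 Snord116 rows share 1 point at 900 bases.

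Among the Cajal body rows Scarna6, Scarna10 and Scarna2 held nearly all counts, while the class as a whole had the lowest median RPKM, and none of its rows passed the test between groups. Scarna6, a scaRNA inside the span of the autophagy gene Atg16l1 (chr1:87784571-87784818, plus strand), had 325, 347 and 247 CPM in the sham libraries and 272, 324 and 263 CPM after ischemia/reperfusion. Scarna10 (chr6:125186361-125186431, minus strand), which guides modification of the U5 spliceosomal RNA and lies inside the condensin gene Ncapd2, had 255, 296 and 186 CPM and then 211, 255 and 192 CPM. In both rows sham replicate 3 was the lowest of all 6 libraries and the groups overlapped. Scarna2 (chr3:108554342-108554402, minus strand), which guides modification of the U2 spliceosomal RNA and has no same-strand host row, went the other way within groups, with its highest values in the third replicates: 87.3, 82.4 and 93.1 CPM and then 74.7, 74.5 and 94.6 CPM. The edgeR log2 fold changes, ischemia/reperfusion minus sham, were −0.15 (SE 0.14, adjusted p = 0.617) for Scarna6, −0.22 (SE 0.18, adjusted p = 0.576) for Scarna10 and −0.16 (SE 0.11, adjusted p = 0.485) for Scarna2. The other 3 Cajal body rows tested, Scarna9, Scarna17 and Scarna3a, averaged under 1 CPM and had log2 fold changes of −0.34, −0.09 and 0.08.

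H/ACA rows were mostly slightly lower in mean after ischemia/reperfusion. Snora23, inside the importin gene Ipo7 (chr7:110046364-110046547, plus strand), was the most abundant, with 69.0, 76.4 and 44.2 CPM in the sham libraries and 46.7, 63.5 and 44.3 CPM after ischemia/reperfusion. Its lowest library was again sham replicate 3, and its log2 fold change was −0.35 (SE 0.23, adjusted p = 0.498). Snora26, inside the long noncoding RNA gene Dancr (chr5:74093530-74093650, plus strand), had 9.52, 8.91 and 7.39 CPM and then 5.37, 7.68 and 7.37 CPM, where ischemia/reperfusion replicate 1 is the lowest. Snora21, inside the ribosomal protein gene Rpl23 (chr11:97781639-97781766, minus strand), had 5.88, 6.71 and 4.93 CPM and then 3.69, 5.40 and 4.53 CPM. For both, the groups overlapped through the third sham replicate.

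These 2 rows and Snord22 had the smallest p-values among the members. By edgeR's quasi-likelihood test the log2 fold change was −0.39 for Snora26 (SE 0.17, adjusted p = 0.305) and −0.42 for Snora21 (SE 0.19, adjusted p = 0.314). Neither passed an adjusted p of 0.05. At the other end, Snora52, inside the gene of the ribosomal stalk protein Rplp2, was the steadiest abundant H/ACA row, with 26.4, 27.4 and 26.3 CPM in sham, 27.7, 25.8 and 25.5 CPM after ischemia/reperfusion and a log2 fold change of −0.08 (SE 0.10).

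Among C/D rows, Snord15b, the U15 snoRNA inside the ribosomal protein gene Rps3 (chr7:99479563-99479707, minus strand), was the most abundant, with 138, 147 and 112 CPM in the sham libraries and 106, 129 and 110 CPM after ischemia/reperfusion. Snord22, the U22 snoRNA known from maturation of the small-subunit ribosomal RNA (chr19:8725866-8725991, plus strand), had 89.3, 91.7 and 69.1 CPM and then 61.8, 76.7 and 73.3 CPM. In both rows sham replicates 1 and 2 lay above every ischemia/reperfusion library, and sham replicate 3 lay within the ischemia/reperfusion range. The log2 fold changes were −0.25 (SE 0.13, adjusted p = 0.353) for Snord15b and −0.30 (SE 0.13, adjusted p = 0.307) for Snord22. Snord37, inside the elongation factor gene Eef2, differed little, with 23.8, 25.0 and 22.9 CPM and then 24.7, 25.5 and 25.1 CPM (log2 fold change 0.01, SE 0.10).

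The 4 C/D rows inside Rpl13a, which guide ribosomal RNA methylation and are known from studies of lipid-induced oxidative stress, were all lower in mean, with a median log2 fold change of −0.18, and none passed the test. Snord33 (chr7:45126864-45126945, minus strand), whose start is printed above, had 31.3, 34.5 and 30.4 CPM in the sham libraries and 29.6, 28.7 and 29.5 CPM after ischemia/reperfusion, so that the groups did not overlap (log2 fold change −0.19, SE 0.10, adjusted p = 0.385). Snord32a, Snord34 and Snord35a had log2 fold changes of −0.29, −0.11 and −0.17 with overlapping groups. The 4 levels differed from one another, from 68.3 RPKM for Snord32a to 374 RPKM for Snord33, although the rows share a host transcript.

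Among imprinted and brain-specific snoRNAs, Snord116 and Snora35 rested on few counts and Snord64 on more. The Snord116 measurement, from the snoRNA cluster of the Prader-Willi region, which is expressed from the paternal allele in neurons, had 0.342, 0.478 and 0.389 CPM in the sham libraries and 0.618, 0.455 and 0.572 CPM after ischemia/reperfusion, which rests on 17 to 30 counts per library (log2 fold change 0.39, SE 0.36, adjusted p = 0.624). Snord64 of the same region had 1.79, 1.56 and 1.72 CPM and then 1.94, 1.78 and 2.05 CPM (log2 fold change 0.13, SE 0.20). Snora35, inside the serotonin receptor gene Htr2c, had 18, 19 and 15 counts in sham and 8, 9 and 26 after ischemia/reperfusion. The third ischemia/reperfusion library is higher and the other two lower than every sham library, and the log2 fold change of −0.25 has an SE of 0.51. Of the list of snoRNAs that take part in cleaving ribosomal RNA, only Snord22 was tested and placed; U3, U13 and Snora73 were not analysed here.

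**Figure D2:**
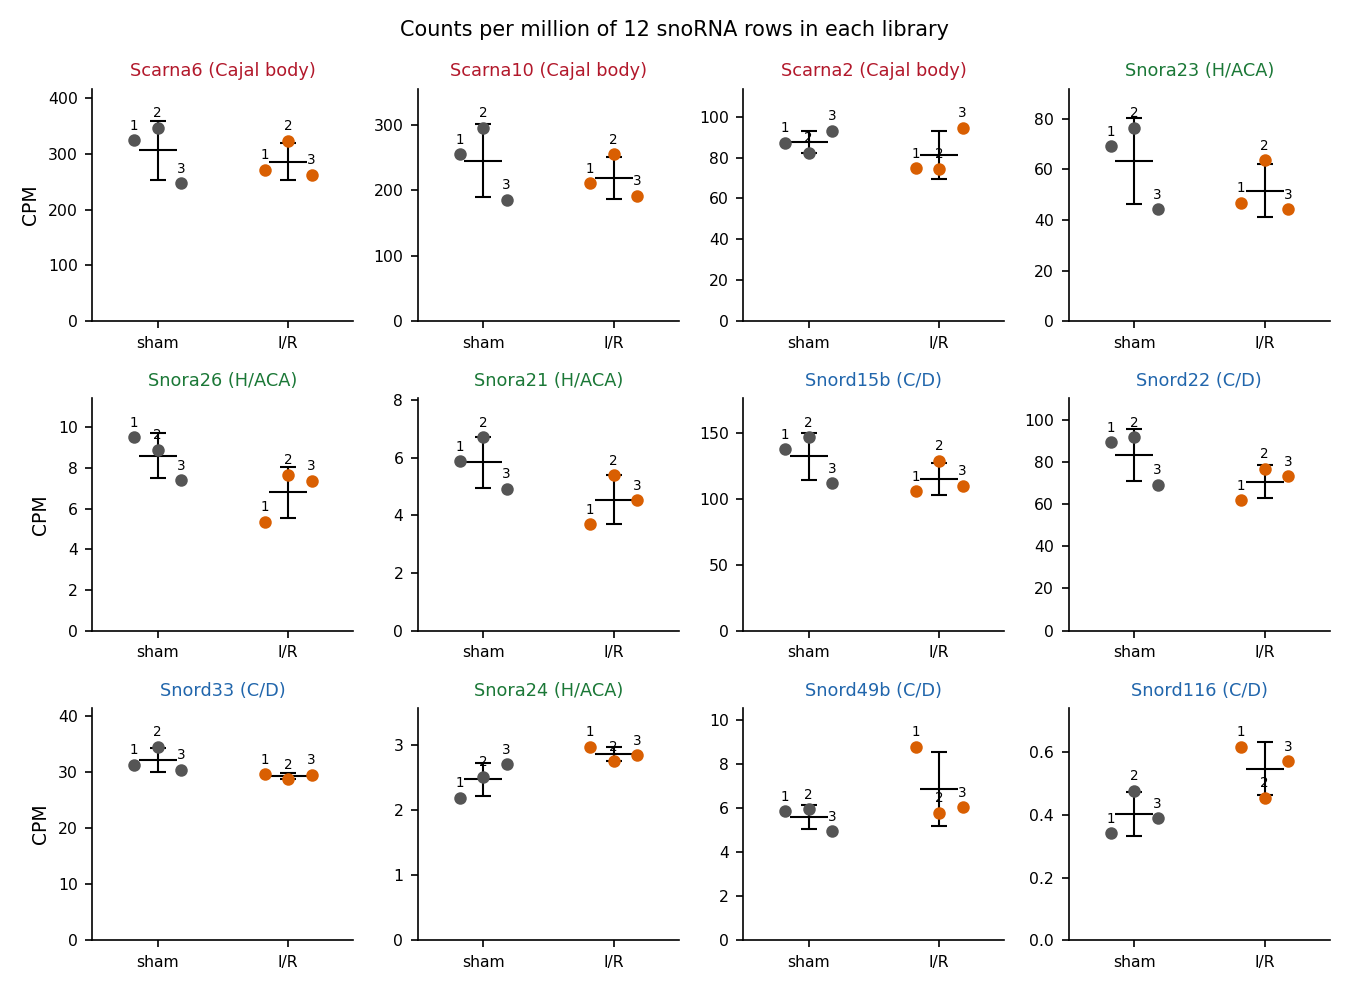
CPM (counts scaled to 1000000 per library) of 12 snoRNA rows in each library, with 1 point per library numbered by replicate, and the bar and whiskers giving the group mean and SD (n = 3). The groups overlap in 10 of the 12 panels. They do not overlap for Snord33, which is lower, and Snora24, which is higher after ischemia/reperfusion (I/R).

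Over the classes, no member passed. After the filter on low counts 89 of the 107 rows were tested (32 H/ACA, 51 C/D and 6 Cajal body), and the other 18 had at most 46 counts in all. No member reached an adjusted p of 0.05 by edgeR or by DESeq2, with a lowest edgeR adjusted p of 0.305. Of the 40170 rows in the edgeR fit 1 was called, which is 0.00249%, so this test called almost nothing anywhere. DESeq2 called 1.03% of its rows as higher and 0.666% as lower. Before adjustment, p was under 0.05 with a higher level in 0 members, against 8.73% of all rows, and with a lower level in 3 (Snora26, Snord22 and Snora21), against 6.90% of all rows. Among rows with a gene symbol, 6.39% were higher and 8.71% lower by that measure. The members' share, 3 of 89, was not above either background.

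The direction was more one-sided than the calls. The log2 fold change was below 0 in 69 of 89 members (77.5%), against 46.9% of all rows and 55.8% of gene-symbol rows. By class it was below 0 in 28 of 32 H/ACA rows (87.5%), 36 of 51 C/D rows (70.6%) and 5 of 6 Cajal body rows (83.3%). These shares count the 1 Snord116 measurement as 3 C/D rows, each above 0 (0.39). The medians were −0.18, −0.15 and −0.16, and −0.16 over all members, against 0.02 for all rows and −0.04 for gene-symbol rows. Without sham replicate 2 the C/D median was −0.07, with 31 of 52 below 0, and the Cajal body median was −0.09; without ischemia/reperfusion replicate 2 the Cajal body median was −0.27. No test was made of these shares, because members share hosts and libraries. They are small beside the error of 1 row, since the median SE was 0.22, and the SE ran from 0.10 to 0.23 among the 24 rows with a mean of at least 10 CPM. The largest values on either side were −0.54 (Snord11, 25 to 58 counts per library) and 0.45 (Snord96a, 15 to 44).

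**Figure D3:**
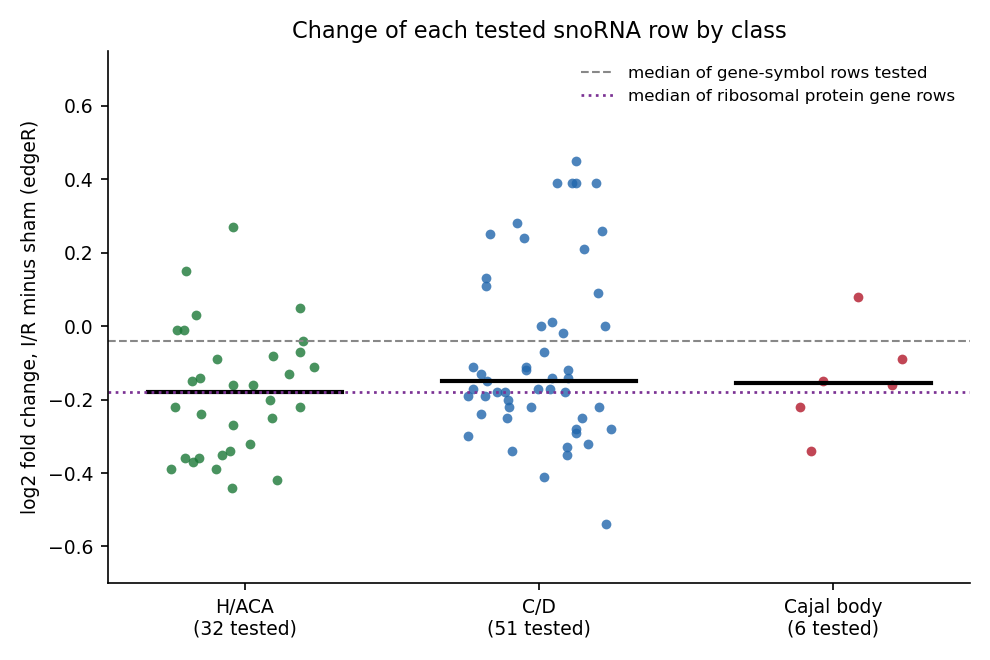
edgeR log2 fold change (ischemia/reperfusion, I/R, minus sham) of the 89 tested snoRNA rows by class, with the black bar at the class median. The medians of −0.18, −0.15 and −0.16 lie below that of all gene-symbol rows (−0.04, dashed) and near that of the ribosomal protein gene rows (−0.18, dotted).

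Counted over all 107 members without a filter, 69 had a lower and 38 a higher mean CPM after ischemia/reperfusion, with a median log2 ratio of −0.09. Among all rows with 12 or more counts, 38.5% were lower (45.4% of gene-symbol rows) and the median was 0.10. The groups did not overlap in 4 members. Snord33, Snord90 and Snora44 were lower in every ischemia/reperfusion library, where 6.29% of all such rows were (8.13% of gene-symbol rows), and Snora24 was higher, where 13.7% were (10.3% of gene-symbol rows). Snord90 rested on few counts, 28, 30 and 29 in sham and 22, 24 and 25 after ischemia/reperfusion (log2 fold change −0.28, SE 0.32). Snora24, inside Snhg8, had 2.19, 2.51 and 2.70 CPM in the sham libraries and 2.97, 2.75 and 2.84 CPM after ischemia/reperfusion. With 3 samples against 3, the exact two-sided permutation test cannot give a p below 0.1 for a single row.

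The one-sided direction moved with individual sham libraries. Among the 3 sham libraries, replicate 2 was the highest in 70 of 107 members and replicate 3 the lowest in 73. Summed over members the CPM was 1620, 1740 and 1320 in sham and 1370, 1530 and 1350 after ischemia/reperfusion, giving means of 1560 ± 219 and 1420 ± 101 (SD, n = 3), a difference within the sham spread. Of the 61 rows with a mean of at least 1 CPM, 51 were above their own mean in sham replicate 2 and 13 in sham replicate 3. Without sham replicate 2 the median log2 fold change of the members was −0.10, and without sham replicate 3 it was −0.23. The count of members lower at an unadjusted p under 0.05 went from 3 to 0 without sham replicate 1 or sham replicate 2, to 5 without ischemia/reperfusion replicate 1, to 10 without ischemia/reperfusion replicate 2 and to 16 without sham replicate 3.

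**Figure D4:**
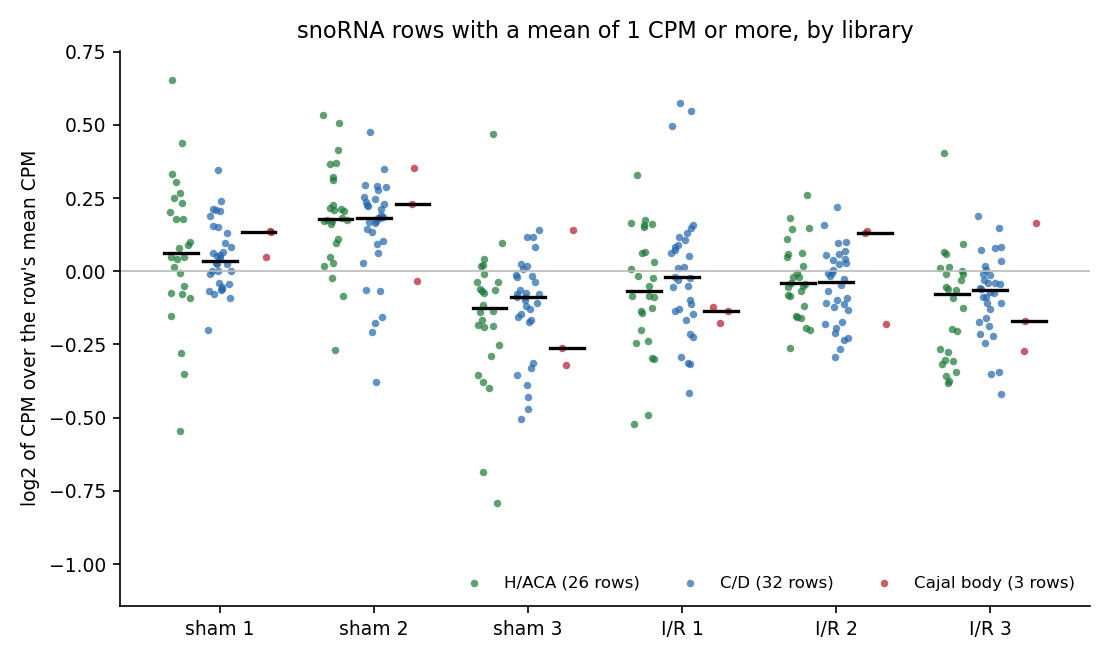
log2 of the CPM of a row over its own mean CPM in each library, for the 61 snoRNA rows with a mean of 1 CPM or more, coloured by class, with black bars at the class medians. Sham 2 lies highest (51 of 61 rows above their mean) and sham 3 low (13 of 61), with the 3 ischemia/reperfusion (I/R) libraries in between or low.

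By row length, the 41 members of 100 or more bases had a median of 22.6 RPKM, and 31 of the 38 tested had a log2 fold change below 0 (median −0.21). The 66 shorter ones had a median of 16.0 RPKM, and 38 of the 51 tested were below 0 (median −0.14). Of 141 gene-symbol rows under 300 bases that are not members, 59 had a log2 fold change below 0, and the median was 0.08. The part of row length in the members' values was not tested.

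Cell type markers also differed between libraries. Their summed CPM, first in sham and then after ischemia/reperfusion, was 4350 to 5420 and 3710 to 9510 for 6 oligodendrocyte markers, 544 to 759 and 17.8 to 1200 for 5 choroid plexus markers, and 2650 to 2960 and 2660 to 2950 for 6 astrocyte markers. It was 110 to 126 and 126 to 158 for 6 microglia markers, 88.7 to 146 and 131 to 210 for 6 blood markers, and 114 to 159 and 135 to 151 for 5 endothelial markers. For 8 neuron markers it was 3420 to 3490 and 3210 to 3700. Such sums follow the most abundant genes, as Slc1a2 among astrocyte markers (mean 1920 CPM). In that list 4 log2 fold changes lay below and 2 above 0, and Gjb6 had −0.64 (adjusted p = 0.139 by edgeR, 0.00333 by DESeq2). Of the microglia markers 5 lay above and 1 below 0, and Cx3cr1 had 1.13 (adjusted p = 0.168 by edgeR, 0.000725 by DESeq2). No marker tested was at 0 in any library. All 6 blood markers had a log2 fold change above 0 (median 0.42). Of these, Hba-a1 and Hba-a2 held nearly the same counts (2916 and 2946 in sham replicate 1) and both had 0.42, so they are hardly separate measurements. Within a list genes could differ in sign, as the neuron markers Slc32a1 (0.40) and Tubb3 (−0.32) did. Their part in the snoRNA levels was not tested, and in whole tissue fewer cells of a type and less RNA per cell cannot be told apart.

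Most members lay inside a gene. A host row, the shortest gene-symbol row on the same strand whose span contains the snoRNA, was found for 97 members in 71 host rows, and 10 members had none. Whether a member lies in an exon or an intron of its host was in most cases not determined, as the table gives spans and summed lengths. In 2 hosts, Snhg8 (785 bases) and AI450353 (1500 bases), the summed length equals the span. Their members Snora24 and Snord7 therefore lie within counted bases of the host row, and a read can be counted in both rows. Ribosomal protein genes made up 21 hosts with 30 members, translation factors 4 hosts with 5, long noncoding RNAs 14 hosts with 22 and other protein-coding genes 30 hosts with 38, and 2 hosts with 2 members had no biotype.

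The members inside ribosomal protein genes had the most uniform direction. All 27 tested had a log2 fold change below 0, with a median of −0.17. So had their 21 host rows, with a median of −0.16. So had the 81 ribosomal protein gene rows of the table, which include these hosts, with a median of −0.18. Member rows can also hold host reads, so members and hosts are not independent views. With no low-count filter 28 of 30 members were below 0. The rows this added, Snord43, Snord72 and Snord73a, held few counts and had log2 ratios of mean CPM of 0.33, 0.03 and 0.95. Under the other scalings tried (RLE, upper-quartile and library totals only) 27 of 27 members stayed below 0 and 20 or 21 of 21 hosts did. Leaving out single libraries left 25 to 27 members below 0. Without sham replicate 2 the medians of the members and of the hosts were both −0.10, and without sham replicate 3 both −0.24. None of these rows passed an adjusted p of 0.05. In long noncoding RNA hosts 11 of 19 tested members were below 0 (median −0.11), and in other protein-coding hosts 21 of 28 were (median −0.20).

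Rpl13a shows what this looks like per library. Its row, the gene of a large-subunit ribosomal protein, had 545, 550 and 499 CPM in the sham libraries and 474, 485 and 482 CPM after ischemia/reperfusion, and the groups did not overlap (log2 fold change −0.20, SE 0.09, adjusted p = 0.308 by edgeR). Over the 71 host rows 51 were below 0 with a median of −0.10, 1 row on the higher and 7 on the lower side had an unadjusted p under 0.05, against 6.39% and 8.71% of gene-symbol rows, and 0 passed an adjusted p of 0.05 by edgeR or DESeq2. The shares among hosts are not read as a result about them. The higher row was Tbrg4, and the lower ones were 2410002F23Rik, the translation genes Eef1b2 and Eif4a2, the ribosomal protein genes Rpl3, Rpl39 and Rpl13a, and the sorting nexin gene Snx5.

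Host and snoRNA changes went together loosely. Over the 80 pairs with both rows tested, 52 were both below 0, 12 both above, 12 had only the snoRNA below and 4 only the host below. The median difference, snoRNA minus host, was −0.03. As a description across pairs that share libraries and sometimes hosts, Pearson's r was 0.35 and Spearman's rho 0.35. The largest differences on either side were −0.71 (Snord22 and Snord11, each minus its host) and 0.59 (Snord96a minus Gnb2l1, from 15 to 44 Snord96a counts per library). Snord22, Snord11 and the pairs whose ratios did not overlap between groups are described in full, chosen after their values were seen.

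Snord22 and its host went opposite ways in mean. The host row Snhg1, the U22 host long noncoding RNA, had 7.93, 11.1 and 7.35 CPM in the sham libraries and 17.5, 8.48 and 10.7 CPM after ischemia/reperfusion (log2 fold change 0.42, SE 0.27, adjusted p = 0.491). The host was high in ischemia/reperfusion replicate 1, where Snord22 was lowest. The ratio of Snord22 to Snhg1 in RPKM was therefore 42.5, 31.2 and 35.5 in sham and 13.3, 34.2 and 25.8 after ischemia/reperfusion, overlapping between groups.

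Snord11 lies inside Nop58, the gene of a core C/D snoRNP protein. Its ratio to Nop58 in RPKM was 1.50, 1.62 and 1.16 in sham and 0.921, 0.903 and 0.786 after ischemia/reperfusion, lower in every ischemia/reperfusion library, from 25 to 58 Snord11 counts per library. Snord34 had a ratio to Rpl13a of 0.533, 0.543 and 0.568 in sham and 0.593, 0.572 and 0.589 after ischemia/reperfusion, which was higher in every ischemia/reperfusion library by a small amount. In the remaining pair of rows whose ratios did not overlap, Snord123 and 0610007N19Rik, the snoRNA row held 1 to 4 counts per library. Over the 97 pairs, the ratio was lower without overlap in 2, higher without overlap in 1 and overlapping in 94. No such ratio was taken over other rows, and so few pairs are not read as a result.

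**Figure D5:**
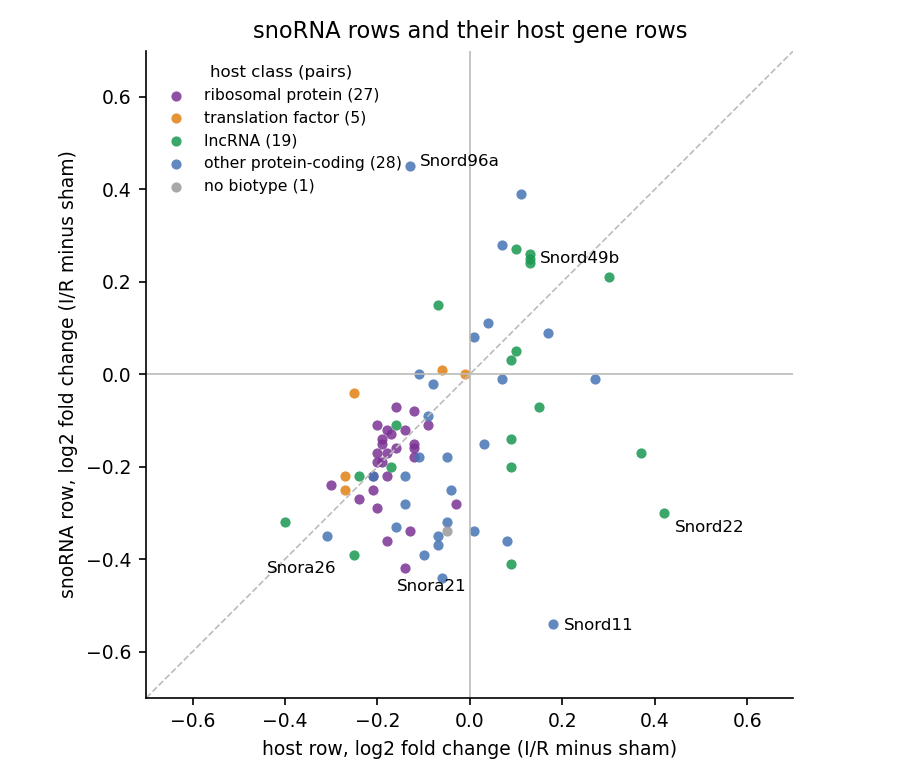
edgeR log2 fold change (ischemia/reperfusion, I/R, minus sham) of 80 snoRNA rows against that of their host rows, coloured by host class, with the dashed line at equal values. The 27 pairs with a ribosomal protein host all lie below 0 on both axes, and Snord22 and Snord11 lie below 0 beside hosts above 0.

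Levels of snoRNA and host were set apart by much more than the groups were. Of 97 members, 34 had a higher mean RPKM than their host row and 63 an equal or lower one, with a median ratio of 0.711. The ratio was highest for Scarna10, at 1120 times the 2.91 RPKM of Ncapd2, then 59.0 for Scarna6 over Atg16l1, 27.7 for Snord22 over Snhg1, 18.9 for Snord17 over Snx5 and 12.2 for Snora23 over Ipo7. The lowest was 0.0036 for Snord73a in the ribosomal protein gene Rps3a1. These ratios depend on row length, which is 71 bases for Scarna10 and 4514 for Ncapd2. For the 63 rows at or below the host, the row can hold host reads as well as snoRNA reads, and the files do not separate them.

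Members of the same host also differed. In the 19 hosts with 2 or more members, the highest member exceeded the lowest by a median of 6.65-fold in RPKM, from 1.13-fold in Snhg7 to 118-fold in Rpl3, where Snord43 had 2.40 RPKM and Snord83b 282. Rps3 holds the related U15 rows Snord15a at 68.5 RPKM and Snord15b at 852 RPKM. In Snhg12, which has 4 members, the range ran from 5.21 RPKM for Snord99 to 37.3 RPKM for Snora61. The 3 members of 2410006H16Rik, Snord49a, Snord49b and Snord65, were all higher in mean: Snord49b had 5.84, 5.94 and 4.95 CPM in the sham libraries and 8.77, 5.77 and 6.03 CPM after ischemia/reperfusion, high in 1 library, with a log2 fold change of 0.24 (SE 0.18).

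Many snoRNA hosts begin transcription in a run of pyrimidines (the 5′ terminal oligopyrimidine, or TOP, feature), so the RefSeq gene starts were searched for a run of at least 8 letters C or T on the gene's own strand, touching the 10 bases on either side of the start. Such a run was found at 7 of 15 ribosomal protein hosts (46.7%), 5 of 11 long noncoding RNA hosts (45.5%), 3 of 27 other protein-coding hosts (11.1%) and 0 of 4 translation factor hosts. Over all 27025 genes of the table the share was 15.8%, and 14 host rows had no entry. To show both kinds, 4 hosts with such a run and 3 without are given from 10 bases before to 20 bases from the start. The longest run that touches the searched bases is in capitals. Those with a run are Rpl13a (chr7:45128726-45128755, minus strand), Snhg1 (chr19:8723477-8723506, plus strand), Snhg12 (chr4:132308668-132308697, plus strand) and Ipo7 (chr7:110018305-110018334, plus strand). Those without are Rps3 (chr7:99483690-99483719, minus strand), Nop58 (chr1:59684996-59685025, plus strand) and Eef2 (chr10:81176621-81176650, plus strand).
Rpl13a: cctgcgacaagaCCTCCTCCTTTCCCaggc
Snhg1: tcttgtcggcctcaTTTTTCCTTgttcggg
Snhg12: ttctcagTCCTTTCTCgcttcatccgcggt
Ipo7: gCTTCTCTTTCCTTTCgcgccggttgccgc
Rps3: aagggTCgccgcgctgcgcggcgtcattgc
Nop58: gctgCTCCacgaggagaggtgtggagcggc
Eef2: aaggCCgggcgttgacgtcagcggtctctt
The longest run touching the searched bases had 14 bases in Rpl13a, 9 in Snhg1, 9 in Snhg12 and 15 in Ipo7. It had 2 in Rps3, 4 in Nop58 and 2 in Eef2. A longer run of C and T letters at the end of the printed Eef2 stretch starts past the searched bases and was not scored. A match describes the letters at a RefSeq start and not the start used in these samples.

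Genes that build, process or house snoRNPs were compared as lists. Of 43 listed symbols 41 were matched and tested. The symbols Snu13 and Tent4b had no row under those names, while Nhp2l1 and Papd5 of the same lists did. Of the 41 tested, 18 had a log2 fold change above and 23 below 0, with a median of −0.04. None passed an adjusted p of 0.05. Without adjustment, p was under 0.05 for 3 on the higher and 3 on the lower side, against 6.39% and 8.71% of gene-symbol rows. All 6 genes of the Cajal body list were below 0, with a median of −0.12, against 55.8% of gene-symbol rows below 0. By the ratio of mean CPM, without TMM factors, Wrap53 was at 0.02 and Smn1 and Gemin5 at −0.01, so the sign of these 3 depends on the scaling or lies next to 0.

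The C/D methyltransferase gene Fbl (fibrillarin) had 11.7, 12.2 and 11.1 CPM in the sham libraries and 18.2, 14.3 and 14.9 CPM after ischemia/reperfusion, without overlap (edgeR log2 fold change 0.38, SE 0.13, adjusted p = 0.221). Nop10, of the H/ACA core, had 35.2, 35.7 and 31.2 CPM and then 26.0, 29.4 and 30.2 CPM (edgeR log2 fold change −0.31, SE 0.11, adjusted p = 0.232). Coil, the Cajal body scaffold coilin, had 29.2, 29.1 and 29.1 CPM and then 25.3, 26.3 and 23.5 CPM (edgeR log2 fold change −0.27, SE 0.10, adjusted p = 0.248). For these 3 genes the groups did not overlap, which held for 7 list genes on the higher side (10.3% of gene-symbol rows) and 3 on the lower (8.13%). Besides Fbl, the higher ones were Gar1, Znhit6, Nolc1, Tcof1, Upf1 and Ncl, and besides Nop10 and Coil the lower one was Tgs1. The remaining 3 at an unadjusted p under 0.05 were Tcof1, a nucleolar assembly factor (0.38), Upf1, of RNA decay (0.27), and Znhit3, a snoRNP assembly factor (−0.33).

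The authors' deposited table of the same contrast lists 105 members, all but Snord1a and Snord123. At a q-value under 0.05 the authors' deposited table has 13 members lower and 1 higher, where 9.77% of its rows were lower and 14.7% higher. The 13 are Scarna10, Scarna2, Scarna6, Snora21, Snora23, Snora26, Snora74a, Snora81, Snord15b, Snord17, Snord2, Snord22 and Snord83b, and the higher one is Snord49b. For Scarna10 the authors' deposited table gives mean RPKM of 3460 in sham and 3090 after ischemia/reperfusion and a q-value of 1.72e-15. The edgeR adjusted p for Scarna10 in the same 6 libraries was 0.576, and no source used here names the test behind the authors' values.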

How the data were processed

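RNA of 3 sham and 3 ischemia/reperfusion brain samples was sequenced by the submitters. The deposited table gives raw counts per row, the authors' RPKM values and row lengths in bases (other), on build mm10 per the submitters' processing notes. A second table by the authors gives mean RPKM, log2 fold changes, p-values and q-values for each gene. No source used here names the aligner, counter, annotation or strand setting. CPM is the count over the column total. Differential tests used edgeR 4.0.16 (R 4.3.3) on all rows: TMM factors (0.969 to 1.028), filterByExpr, robust quasi-likelihood F test, two-sided, Benjamini-Hochberg over 40170 rows. DESeq2 1.42.0, limma-voom (limma 3.58.1), other scalings, filters and left-out libraries were alternatives. Scripts were tested on simulated data. Genes were named by fixed rules: the 10 members with the highest mean CPM in H/ACA and C/D and 6 in the Cajal body class, the 10 smallest p-values in each direction, role lists, their hosts, and up to 4 genes per protein list. The members, lists and rules were chosen with earlier results of these data known. Sequences come from RefSeq tables of GRCm38.p6. Deviations of same-numbered samples from their group means had r = −0.068, 0.034 and 0.11, and those of differently numbered samples −0.135 to 0.11. These few values cannot show whether numbers pair samples. The main fit left pairing out, and a replicate block was an alternative. Means are given with SD (n = 3). Counting error was not separated from other spread, and it weighs most in rows of few counts. Of the 107 members, 46 averaged under 1 CPM.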

Additional observations from a re-analysis of the deposited data

How the results depend on the processing

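Members past an adjusted p of 0.05 and members higher at an unadjusted p under 0.05 were 0 under every alternative run. Their median log2 fold change stayed below 0 throughout, from −0.23 to −0.10 over left-out libraries. Over all rows, the count past an adjusted p of 0.05 was 1 by edgeR, 2 with upper-quartile factors, 4 with limma-voom, 77 with no low-count filter, 576 with DESeq2 (6236 rows had no adjusted p), and 0 with gene-symbol rows only, under a minimum mean of 1 CPM and with the replicate block, and it ran from 0 to 1057 over left-out libraries (1057 without ischemia/reperfusion replicate 1, 43 without replicate 2 of that group, 34 without sham replicate 2). The number of members lower at an unadjusted p under 0.05 was 3 and became 5 with no low-count filter, 5 with the replicate block, and 0 with upper-quartile factors, with library totals only, with gene-symbol rows only and under a minimum mean of 1 CPM, and it ran from 0 to 16 over left-out libraries. The cause of these moves was not tested, apart from the fewer rows or samples some settings hold. For 5 named members, none past the test, the sign turned when a library was left out: over left-out libraries the log2 fold change ran from −0.23 to 0.05 for Scarna17 (0.01 without sham replicate 1), from −0.28 to 0.29 for Scarna3a (−0.11 without sham replicate 3), from −1.02 to 0.04 for Snora35, from −0.03 to 0.05 for Snord37 (−0.01 without ischemia/reperfusion replicate 2) and from −0.02 to 0.38 for Snord65. With the replicate block the members' median was −0.15 and no member passed. Library totals only, and leaving out rows away from their RefSeq position, were added after the data were seen. The low-count filter removed 18 members with few counts, which were tested in the fit without it.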
